A study of Homo sapiens with 6 samples.

Results

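Regions that carried both H3K27ac and H3K4me3 away from the annotated starts of protein-coding and lncRNA transcripts were examined in HSC3 cells. Of the 19705 H3K27ac regions called in control cells on chromosomes 1 to 22 and X, 2656 (13.5%) lay more than 1 kb from every transcription start site (TSS) of a protein-coding or lncRNA transcript and shared 1 bp or more with a control H3K4me3 region. They are called double-marked distal regions here. A TSS of some other annotated transcript was within 1 kb of 397 of them (14.9%). Many of these were other transcript types of protein-coding or lncRNA genes. With TSSs of every transcript of such genes 2433 regions remained, and with those of every annotated transcript, pseudogenes and small RNAs included, 2259. Another 602 H3K27ac regions were equally far from a TSS but had no H3K4me3, and 16447 lay within 1 kb of a TSS. The regions were chosen by the presence of both marks in the control lists, so the control values below are a description, and only the siDLEU1 lists were free to differ.

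HSC3 is an established human line of oral squamous cell carcinoma, kept in RPMI medium with serum. The cells were transiently transfected either with a control siRNA (siCONT) or with an siRNA against the lncRNA DLEU1 (siDLEU1), and chromatin was taken 72 h later for ChIP-seq of both marks. The question was how DLEU1 depletion changed histone marks across the genome. Each siRNA and mark had 1 library, only 1 siRNA against DLEU1 was used for ChIP-seq, and no list reports DLEU1 RNA, so the differences below have no replicate check and cannot be told apart from differences between libraries.

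The lists held 19705 and 17672 H3K27ac regions in siCONT and siDLEU1 cells, and 58582 and 56943 H3K4me3 regions. The depth worked out from the lists was about 21500000 and 29400000 reads for H3K27ac and 28500000 and 22300000 for H3K4me3, in the same order. The median fold enrichment of a list was 14.6 and 9.64 for H3K27ac and 7.06 and 7.48 for H3K4me3. A pair of folds from 2 lists is therefore not by itself a change of a region. All 6 squamous marker genes used for this check (KRT5, KRT14, KRT17, TP63, LAMB3 and ITGB4) had H3K27ac within 1 kb of a TSS, as did 1 of 4 immune markers (CD14), 0 of 3 endothelial and 0 of 2 neural markers.

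Acetylation of histone H3 at lysine 27 marks active promoters and enhancers, whereas trimethylation at lysine 4 is concentrated at the starts of transcribed genes. Enhancers far from genes typically carry H3K27ac with monomethylated rather than trimethylated lysine 4. Distal sites with both marks can be promoters of other transcripts, and those of retrotransposons, which are copies of mobile elements that spread through RNA, are among the known examples.

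The sequence under the regions is shown first, because repeated sequence accounted for a large share of them. When the 300 bases around each control H3K27ac summit were compared, regions that shared at least 20 words of 30 bases were joined into groups. The first group held 561 of the 2656 double-marked distal regions (21.1%, 95% interval 19.6 to 22.7), 14 of the 602 distal regions without H3K4me3 (2.33%) and 51 of the 16447 regions at TSSs (0.310%). The second group held 273 (10.3%), 55 (9.14%) and 27 (0.164%) of the same classes. Of the remaining groups, one held 51 double-marked distal regions and the other 17. The group of 51 also held 13 distal regions without H3K4me3 and 94 regions at TSSs. Only groups with 10 or more double-marked distal regions were kept, so the groups cannot show how repeats were shared out between distal regions and TSSs. Among distal regions, the first group was the one in which H3K4me3 was nearly always present. No repeat annotation was used, and the groups were named after their sequences were seen. The first group is recognisable as the 5′ end of young LINE-1 elements, the main self-copying retrotransposons of the human genome, the second group as SVA, a composite CpG-rich retrotransposon, the group of 51 as Alu, and the group of 17 as the spacer of the tandem 5S rRNA genes. The word shared by most members of the 5S group (15 regions) shows how exact the repeats were, and is given 5′ to 3′.
5S spacer word: cttgccccacccacccagagccgtcagggc

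All 561 double-marked regions of the LINE-1 group could be set in the same orientation, 284 on the plus and 277 on the minus strand. Between 3000 and 500 bases upstream of the summit, none of the 561 shared a common word with the group. Sequence was shared by 98.0% of them in the 500 bases upstream of the summit and by 100% in the 500 bases downstream. It was still shared by 93.0% between 5500 and 6000 bases downstream, fell to 3.03% in the next 500 bases and was 0% from there to 9000 bases. The shared stretch thus began just before the summit and ended about 6000 bases later, so the H3K27ac summit sat at the start of nearly full-length elements. These regions were on 21 chromosomes and had 537 different nearest genes.

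**Figure D1:**
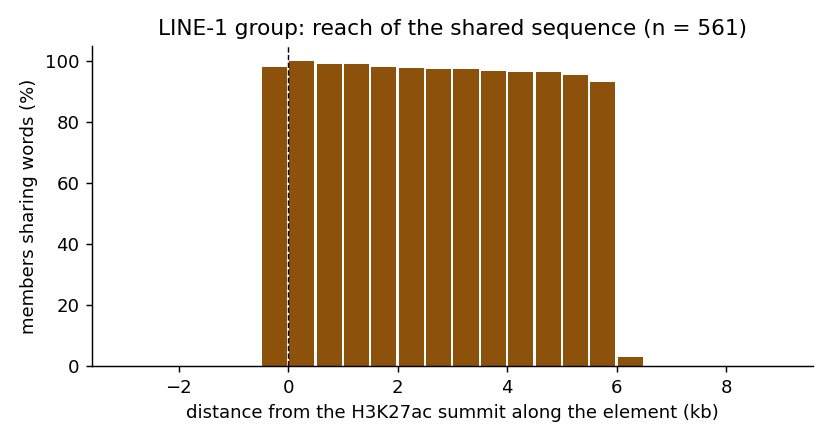
Share of the 561 double-marked distal regions of the LINE-1 group that held a 30-base word common to the group (y axis, percent) in 500-base bins along the element (x axis, kb from the H3K27ac summit, dashed line). The share rose from 0% to 98.0% just upstream of the summit and fell from 93.0% to 3.03% at 6 kb downstream.

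Reads from such elements fit many places. The 31 bases at the summit occurred at 2 or more places in the genome for 989 double-marked distal regions (37.2%), against 24.9% of distal regions without H3K4me3 and 4.65% at TSSs, and at over 100 places for 391 (14.7%). How reads that fit several places were placed is not given in the sources used here, so a mark at these regions cannot be assigned to 1 copy from these bases alone. Results are therefore also given for the 1667 regions whose summit bases occurred once, and for the 1822 outside the LINE-1 and SVA groups.

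The 300 bases around the summit are shown for a region that kept both marks and for another that lost both, with every CpG in capitals, read on the plus strand of GRCh37. The first is the strongest region at the edge of a promoter's H3K4me3 region that kept both marks (PTHLH, chr12:28127938-28128237), and the second is the strongest region that lost H3K27ac (PSMA3, chr14:58706966-58707265).
PTHLH window: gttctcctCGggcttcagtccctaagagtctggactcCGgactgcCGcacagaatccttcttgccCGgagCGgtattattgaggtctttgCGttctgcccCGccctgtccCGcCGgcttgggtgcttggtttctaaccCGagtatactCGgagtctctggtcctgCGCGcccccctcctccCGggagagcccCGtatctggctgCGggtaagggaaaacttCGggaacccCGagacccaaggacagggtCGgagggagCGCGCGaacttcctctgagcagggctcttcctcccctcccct
PSMA3 window: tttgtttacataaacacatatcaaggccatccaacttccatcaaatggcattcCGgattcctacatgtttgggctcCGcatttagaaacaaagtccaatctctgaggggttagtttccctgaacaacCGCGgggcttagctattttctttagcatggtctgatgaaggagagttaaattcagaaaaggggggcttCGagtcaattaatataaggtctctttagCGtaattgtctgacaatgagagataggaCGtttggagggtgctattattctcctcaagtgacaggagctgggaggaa
The PTHLH window held 22 CpGs and 63% G or C, and that of PSMA3 held 7 CpGs and 43%. The PTHLH region, near the gene of parathyroid hormone-like hormone, had H3K27ac fold enrichments of 19.05 and 6.91 and H3K4me3 of 20.03 and 22.5 in siCONT and siDLEU1 cells. Its percentile rank of fold enrichment in the list was 65.0 and 27.3 for H3K27ac and 93.0 and 93.4 for H3K4me3.

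The double-marked distal regions were spread over introns and the spaces between genes. The summit was in an intron in 1165 (43.9%), in an exon in 161 (6.06%) and between genes in 1330 (50.1%). The nearest TSS was 1 to 2 kb away for 327, 2 to 5 kb for 375, 5 to 10 kb for 403, 10 to 50 kb for 1094 and more than 50 kb for 457, with a median of 13496 bp. Distal regions without H3K4me3 had nearly the same median distance (13747.5 bp). The share of distal H3K27ac regions with H3K4me3 did not move with distance, and lay between 80.5% (76.4 to 84.1) at 1 to 2 kb and 83.6% (80.0 to 86.6) at 5 to 10 kb. It was 90.0% at TSSs. By contrast, it rose with the strength of H3K27ac, from 67.8% (64.6 to 70.8) in the weakest decile of fold enrichment to 100% of the 120 distal regions in decile 7 and of all stronger ones. Values on either side of the 1 kb limit were alike in kind. The nearest members lay 1001 bp from a TSS, at ARHGAP8 (control H3K27ac fold enrichment 5.35, H3K4me3 22.6) and C1D (3.67 and 6.58), and the nearest doubly marked regions left out lay 1000 bp from SENP7 (7.14 and 18.4) and 999 bp from FABP6 (6.25 and 17.0).

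In the control lists the regions were weak in H3K27ac and stronger in H3K4me3. Strength is given as the percentile rank of fold enrichment within a list, where 100 is the strongest region. The median H3K27ac rank was 24.5, against 11.1 for distal regions without H3K4me3 and 56.9 at TSSs, and the median width was 433 bp, against 271.5 and 843 bp. Only 16 of the 2656 were in the strongest decile of H3K27ac, and 594 (22.4%) were in the weakest. The median rank of their strongest H3K4me3 region was 70.5, against 79.2 at TSSs with H3K4me3. H3K4me3 ranked higher than H3K27ac in 2435 (91.7%) of them and in 71.9% of TSS regions with both marks. The H3K4me3 region was the wider one in 74.4% of double-marked distal regions and in 50.1% of those TSS regions. In 143 (5.38%) the H3K4me3 region reached to within 1 kb of a TSS, so that the region was at the shoulder of a promoter domain, and these had a median H3K27ac rank of 11.9 and a median H3K4me3 rank of 90.8. The other 2513 stood apart, with median ranks of 25.3 and 69.3.

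Over all double-marked distal regions, H3K4me3 was found again more often than H3K27ac after DLEU1 depletion. A siDLEU1 H3K27ac region overlapped 1328 of the 2656 regions (50%, 48.1 to 51.9), whereas a siDLEU1 H3K4me3 region overlapped 2347 (88.4%, 87.1 to 89.5). The 1328 without siDLEU1 H3K27ac compare with 22.2% of all control H3K27ac regions, and the 309 without siDLEU1 H3K4me3 compare with 5.24% of all control H3K27ac regions that had H3K4me3. H3K27ac was found again at 18.8% (15.9 to 22.1) of distal regions without H3K4me3 and at 88.5% (87.9 to 89.0) of TSS regions with H3K4me3. H3K4me3 was found again at 95.9% (95.6 to 96.2) of the latter. These intervals cover the counting of regions only, not the spread between libraries. Both marks were kept at 1295 double-marked distal regions (48.8%), H3K4me3 alone at 1052 (39.6%), H3K27ac alone at 33 (1.24%) and neither at 276 (10.4%). The 1361 that did not keep both compare with a background of 19.1%. The usual outcome of losing H3K27ac was a region with H3K4me3 only, since 79.2% of the regions that lost H3K27ac kept H3K4me3, which was close to the 79.8% at TSS regions with both marks.

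**Figure D2:**
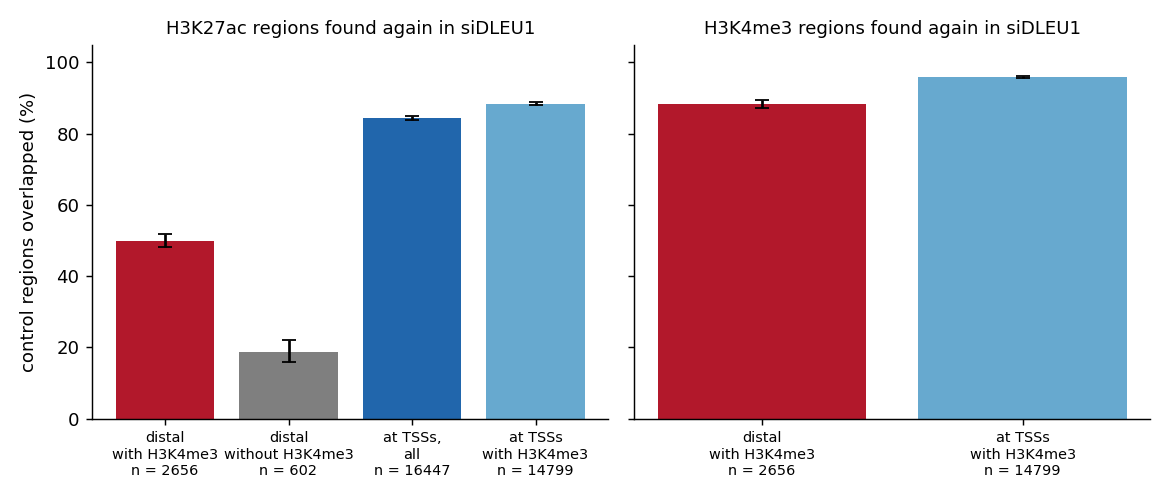
Share of control H3K27ac regions overlapped by a siDLEU1 H3K27ac region (left) or a siDLEU1 H3K4me3 region (right), in percent, by class of control region; error bars are 95% Wilson intervals for the counting of regions and n is the number of regions. Double-marked distal regions were at 50% for H3K27ac and 88.4% for H3K4me3.

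Weak regions were found again less often in every class, so the classes were also set side by side within deciles of control H3K27ac fold enrichment over the whole list. In the weakest decile, 12.6% of 594 double-marked distal regions kept H3K27ac, against 8.16% of 282 distal regions without H3K4me3 and 24.4% of 1138 at TSSs. With and without H3K4me3, the distal shares were 22.7% and 17.1% in decile 2 and 46.7% and 41.0% in decile 3. In decile 4 the shares of the 3 classes were 70.1% (65.3 to 74.5), 44.4% (30.9 to 58.8) and 84.0% (82.1 to 85.7). From decile 8 upwards all 113 double-marked distal regions, 60, 37 and 16 per decile, kept H3K27ac. Distal regions without H3K4me3 were present only in deciles 1 to 6, with 8 in decile 5 and 2 in decile 6. In decile 5, 50% of the 8 kept H3K27ac, against 87.0% of 277 double-marked distal regions. Deciles were weighted by the latter number, so much of the average below rests on decile 4 and on the 8 regions of decile 5. All regions without H3K4me3 in decile 6 kept H3K27ac, so they added no error to its interval. Averaged over these deciles, retention was 11.3 percentage points higher (5.81 to 16.7) with H3K4me3 than without it. That is less than the gap between the unadjusted shares of 50% and 18.8%. The difference was 3.83 points (-2.22 to 9.88) with a minimum −log10 q of 10 for every list, and 6.402 (-1.14 to 13.9) when a region counted as retained only where 50% of each region was shared, and both of these intervals include 0. The distal classes with and without H3K4me3 were not matched for width, with medians of 419 and 341.5 bp in decile 3 and 510 and 383 bp in decile 4. The part of width in the difference was not tested. In deciles 1 to 7 the double-marked distal regions stayed below the TSS regions of the same decile.

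The control strength of the marks differed in these regions, at median ranks of 24.5 for H3K27ac and 70.5 for H3K4me3. Within the same decile of each mark's own list, H3K27ac and H3K4me3 were kept at 12.6% and 61.7% in decile 1 and at 22.7% and 45.9% in decile 2. By H3K27ac these deciles held 594 and 516 of the regions, and by H3K4me3 they held 81 and 109. The shares were 46.7% and 51.3% in decile 3, 70.1% and 73.9% in decile 4, 87.0% and 75.3% in decile 5 and 95.7% and 88.5% in decile 6. At equal decile H3K4me3 was thus kept more often in deciles 1 to 4, by most in decile 1. The intervals of the marks overlapped in decile 3 (42.3 to 51.2 and 42.2 to 60.3) and in decile 4 (65.3 to 74.5 and 66.6 to 80.1). The control lists held 19705 and 58582 regions, so an equal decile is not an equal strength. The order of the marks turned from decile 5 upwards, to 98.3% and 93.4% in decile 7 and 100% and 97.7% in decile 8.

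**Figure D3:**
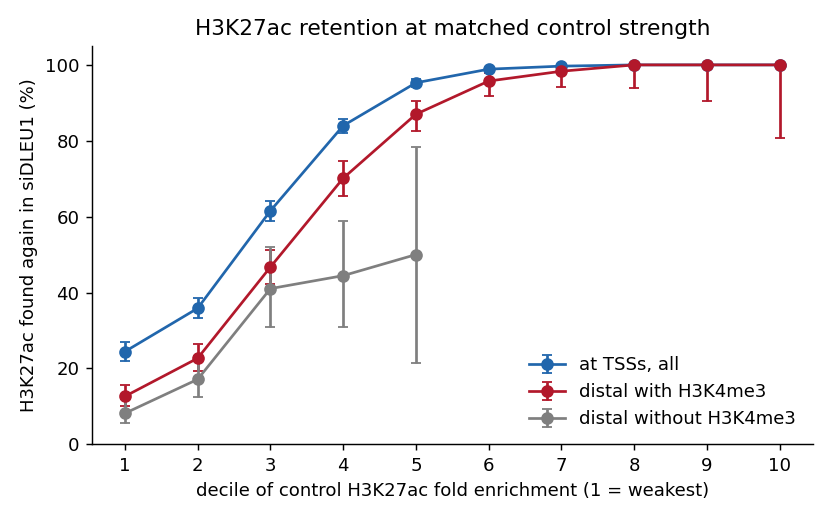
Share of control regions with H3K27ac in siDLEU1 cells (y axis, percent) by decile of control fold enrichment (x axis, 1 the weakest) for regions at TSSs, double-marked distal regions and distal regions without H3K4me3; points with fewer than 5 regions are left out and error bars are 95% Wilson intervals for the counting of regions. In decile 4 the 3 classes were at 84.0%, 70.1% and 44.4%.

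At the 1328 regions that kept H3K27ac, the mark ranked lower in siDLEU1 cells, with a median change of -11.9 percentile points. The rank was lower at 1000 of them (75.3%), against a background of 63.0% for all retained control regions. The regions narrowed from a median of 595 to 362.5 bp, and 92.2% were narrower, against a background of 91.0%. The number of fragments at the summit, scaled to the depth of the library, in fragments per 1000000 reads, fell from a median of 2.79 to 1.56, with a median ratio of 0.578, and was lower at 96.5% of them, against 98.0% of all retained regions, whose median ratio was 0.584. By this count the double-marked distal regions moved as the whole H3K27ac list did. The lists differ in length, and with equal numbers of regions per mark the median rank change was -6.10. For H3K4me3 the median rank change at the 2347 retained regions was -3.83, and the rank was lower at 1453 (61.9%), against a background of 49.5%. The scaled fragment numbers were about the same in both libraries, with a median ratio of 1.004 (quartiles 0.833 and 1.22), compared with 1.15 at TSS regions with both marks. They were lower at 49.3% of the double-marked distal regions, against a background of 32.3%.

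**Figure D4:**
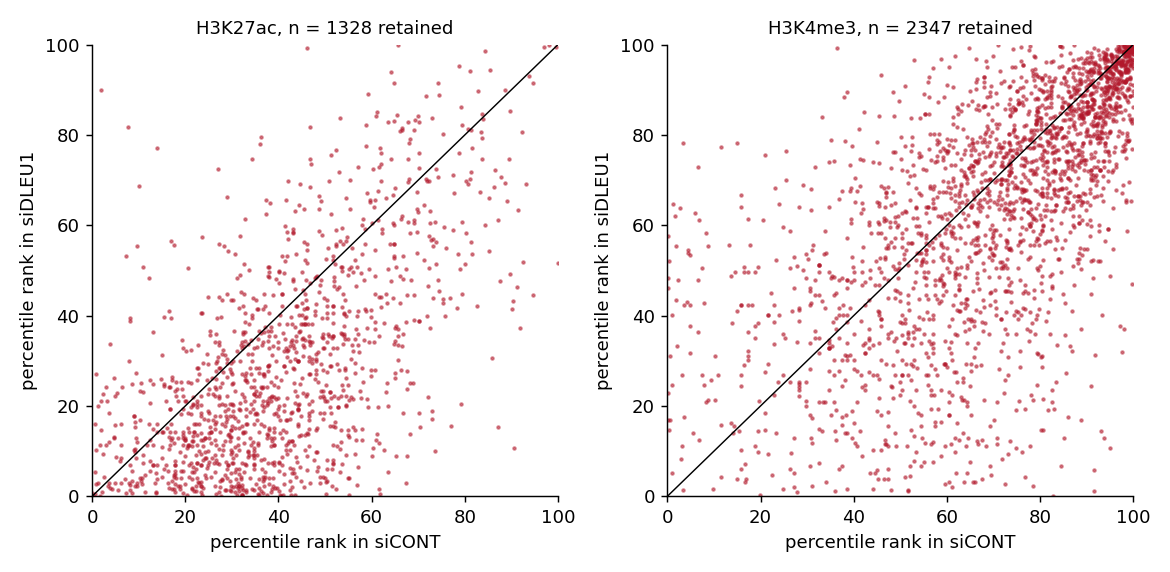
Percentile rank of fold enrichment in siCONT (x axis) and siDLEU1 cells (y axis) at double-marked distal regions that kept H3K27ac (left, n = 1328) or H3K4me3 (right, n = 2347); each point is a region and the line marks equal ranks. For H3K27ac 1000 points lie below the line and 328 above, and for H3K4me3 1453 and 894.

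The same rule applied to the siDLEU1 lists gave 1765 distal H3K27ac regions, of which 1609 (91.2%) had siDLEU1 H3K4me3. Of these, 1544 were overlapped by a control H3K27ac region and 65 (4.04%) were not. Among all siDLEU1 H3K27ac regions, 1.24% were not overlapped. The strongest of the 65 lay near ENSG00000267109, with a fold enrichment of 7.38 and a rank of 31.4. Of the 1609, 1363 (84.7%) overlapped a region that was double-marked and distal in control cells.

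The control H3K4me3 regions under the double-marked distal regions numbered 2695, and 2372 of them (88.0%) were found again. Over all control H3K4me3 regions the share was 76.4%, with 23.6% not overlapped, and it was 67.7% for the 33790 that lay more than 1 kb from a TSS without H3K27ac. The latter ranked lower in the control list, with a median rank of 37.4 against 69.0. Of the 309 double-marked distal regions that lost H3K4me3, 295 had a control H3K4me3 region that was not overlapped at all, and 14 had one that was still overlapped elsewhere along its length. Some of the strongest H3K4me3 losses were of the second kind and lay at promoter shoulders, in introns near the TSSs of CCNG1 and SCD, which encode cyclin G1 and a fatty acid desaturase. Their control H3K4me3 ranks of 99.5 and 95.6 belong to domains that reached to the promoter, and their control H3K27ac ranks were 4.95 and 4.32.

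Retention of both marks also differed between the sequence groups. In the LINE-1 group 267 of 561 regions kept H3K27ac (47.6%, 43.5 to 51.7) and 540 kept H3K4me3 (96.3%, 94.3 to 97.5), and every region that kept H3K27ac kept H3K4me3 too. Their median control H3K4me3 rank was 80.3, with a median width of 904 bp, against a median H3K27ac rank of 23.7. In the SVA group 167 of 273 kept H3K27ac (61.2%, 55.3 to 66.8) and 252 kept H3K4me3 (92.3%, 88.5 to 94.9). In the Alu group 19 of 51 kept H3K27ac and 45 kept H3K4me3. Outside the LINE-1 and SVA groups 894 of 1822 kept H3K27ac (49.1%, 46.8 to 51.4) and 85.3% (83.6 to 86.9) kept H3K4me3. Within deciles of control H3K27ac the LINE-1 group differed from the other double-marked distal regions by -1.47 points for H3K27ac and by 10.5 points for H3K4me3. The LINE-1 median H3K4me3 rank of 80.3 compares with 70.5 over all double-marked distal regions. The groups were not compared at equal H3K4me3 strength, so the part of that strength in the second difference was not tested. Double-marked distal regions, those of the LINE-1 group included, kept H3K4me3 at 97.7% in decile 8 of control H3K4me3 fold enrichment and at 99.8% in decile 9. At retained LINE-1 regions scaled H3K4me3 fragment numbers had a median ratio of 0.939 and the median rank change was -6.78, whereas in the SVA group these were 1.14 and 0.0950. Regions whose summit bases occurred once kept H3K27ac at 49.5% and H3K4me3 at 86.4%.

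CpG content went with retention. The median G and C content of the 300 bases was 59.0% in double-marked distal regions, 57.3% in distal regions without H3K4me3 and 65.7% at TSSs, and the median ratio of observed to expected CpG was 0.642, 0.608 and 0.756. Windows with more than 50% G and C and a CpG ratio above 0.6 made up 1413 of the 2656 (53.2%). Of these, 62.3% kept H3K27ac, against 36.0% of the other 1243, and the difference within deciles of H3K27ac strength was 10.3 points. For H3K4me3 the shares were 92.4% and 83.8%. Width at a given strength also went with H3K27ac retention, since regions wider than the median of their decile kept it at 56.8% and the others at 43.3%. The strength of H3K4me3 hardly separated the regions that kept H3K27ac from those that lost it, at 51.6% above and 48.4% below the decile's median H3K4me3 rank, although it separated H3K4me3 retention, at 98.1% and 78.7%.

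Words bound by known factors were counted on both strands of the same windows. The AP-1 word TGANTCA, the site of FOS and JUN factors, was in 211 double-marked distal regions (7.94%), 7.14% of distal regions without H3K4me3 and 3.17% of TSS regions, with 3.94% over all control regions. In the LINE-1 group 73 of 561 held it (13.0%), in the SVA group none of 273. The interferon-stimulated response element (ISRE) word was in 205 (7.72%), 11.8% and 2.49%, with 3.48% over all control regions. It was in 11.4% of the double-marked distal regions that lost H3K27ac and in 3.99% of those that kept it, and H3K27ac was kept at 25.9% of regions with the word and at 52.0% of those without it, a difference of -15.3 points within deciles. For H3K4me3 the shares were 71.2% and 89.8%, a difference of -16.7 points. Of the 205 regions with the word, 200 lay outside the LINE-1 and SVA groups, 5 in the LINE-1 group and 0 in the SVA group. These groups kept H3K4me3 at 96.3% and 92.3%, against 85.3% outside them. The part of the groups in the differences for this word was not tested. Other words were also more frequent in regions that lost H3K27ac than in those that kept it, at 20.4% and 14.3% for NF-Y, 6.401% and 3.69% for the gamma-interferon word and 9.19% and 6.70% for AP-1. G and C content moved with retention too, as the regions that lost H3K27ac had a median of 57.0% and those that kept it 61.7%, and its part in these differences was not tested. The gamma-interferon word TTCNNNGAA was in 5.05%, the TEAD word GGAATG in 9.98%, the ETS word CCGGAAG in 4.03%, the E-box CACGTG in 3.35%, the NF-Y word CCAAT in 17.4% and the CRE word TGACGTCA in 0.151%, and over all control regions these were in 5.46%, 11.1%, 6.01%, 4.79%, 17.7% and 0.330%. Of the 1822 regions outside the LINE-1 and SVA groups, 7.19%, 13.7%, 5.27%, 4.39%, 21.95% and 0.2195% held these words, in the same order. There the gamma-interferon, TEAD and NF-Y words were more frequent than over all control regions. The ETS, E-box and CRE words were less frequent. A match is only a run of letters and does not show binding.

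Some of the regions lay near 5S rRNA genes, snRNA genes or pseudogenes, or near a word found in tRNA genes. The internal promoter word of tRNA genes (the B box) was within 1 kb of the summit in 89 double-marked distal regions (3.35%). This was about the share over all control regions (3.42%), with 5.48% of distal regions without H3K4me3 and 3.36% at TSSs. No tRNA annotation was used, and a word match does not show a tRNA gene. The 89 had a median control H3K27ac rank of 41.2, against 23.7 for the rest, yet kept H3K27ac about as often (52.8% and 49.9%), a difference of -20.3 points within deciles. Of the 89, 20 lay between 26 and 29 Mb of chromosome 6, where histone and tRNA genes cluster. The 32 double-marked distal regions of that stretch kept H3K27ac at 65.6%, with a median ratio of scaled fragments of 0.335. The 5S rRNA array on chromosome 1 held 17 double-marked distal regions, each within 500 bp of an annotated 5S gene. The gene nearest to most double-marked distal regions was RNF187 (13, of which 12 in the array), followed by BCOR (8) and RHOU (6, of which 5 in the array). In the array 9 of 17 kept H3K27ac, with a median ratio of scaled fragments of 0.339, and 12 kept H3K4me3, and the summit bases occurred at 14 to 32 places. The 8 regions nearest to BCOR, a transcriptional corepressor gene on chromosome X, all kept H3K4me3, and 1 kept H3K27ac. They were weak, with a highest control H3K27ac rank of 20.9, and H3K27ac was kept at 12.6% and 22.7% of double-marked distal regions in deciles 1 and 2. LINC01072, with 5 regions of which 3 kept H3K27ac and 5 kept H3K4me3, came next, and ENSG00000289614, with 4 of which 2 and 4 did, held the strongest region among several genes with 4. An annotated pseudogene lay within 500 bp of the summit in 109 (4.10%), against 8.80% of distal regions without H3K4me3 and 2.24% of all control regions. The 109 had a median control H3K27ac rank of 31.7, against 24.5 for all double-marked distal regions, and 73 (66.97%) kept H3K27ac. An snRNA gene lay as near in 23 (0.866%), against 0.249% of all control regions. The 23 had a median control H3K4me3 rank of 95.2 and kept H3K4me3 in all but 1 case (95.7%).

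The nearest genes numbered 2237, of which 1899 had 1 double-marked distal region, 286 had 2 and 52 had 3 or more. The nearest gene was protein-coding for 1603 regions (60.4%) and a lncRNA gene for 1053. It had H3K27ac within 1 kb of a TSS of its own for 53.9% of the regions, against 45.7% for distal regions without H3K4me3 and 41.1% of all genes. The summit bases occurred at 2 or more places for 6 of the 10 strongest regions. The strongest, at chr5:70584971-70586829 near ENSG00000253985, had a control H3K27ac fold enrichment of 45.8 with 202 fragments at the summit, and 9.86 with 168 fragments in siDLEU1 cells. Its H3K4me3 fold enrichment was 43.5 and 19.5, with 260 and 255 fragments. Scaled to depth, the fragments per 1000000 reads were 9.41 and 5.71 for H3K27ac and 9.14 and 11.4 for H3K4me3, so that H3K4me3 was lower by fold enrichment and higher by scaled fragments. Its summit bases occurred at 4 places. The region near PPIAL4A at chr1:147929981-147932960 had H3K27ac fold enrichments of 41.1 and 23.5 and H3K4me3 of 41.4 and 50.7, and its rank was near the top in all 4 lists (99.6 and 99.5 for H3K27ac, 99.95 and 99.99 for H3K4me3). Other strong regions lay near ENSG00000289614 (control H3K27ac rank 97.1), HSPA6 (94.6), GRIN1 (93.8), ENSG00000287252 (93.1) and C14orf93 (92.5). All 10 of the strongest kept both marks. The summit bases of the C14orf93 region occurred at 1 place, and its H3K27ac rank fell to 51.8 with an H3K4me3 rank of 97.6 in siCONT and 95.6 in siDLEU1 cells.

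The strongest regions without siDLEU1 H3K27ac were of middle strength in the control list, from a rank of 62.1 down to 50.4 for the first 10. The region near PSMA3, a proteasome subunit gene, at chr14:58706051-58707454 had 106 H3K27ac and 82 H3K4me3 fragments in control cells and neither mark in siDLEU1 cells. The region near HMGN4, on the chromosome 6 stretch above, lost both marks. Regions near RP11-666A1.5, ENSG00000291220, TFAP4 and ENSG00000287933, the last of them in the LINE-1 group, lost H3K27ac and kept H3K4me3, and those near DMRT2, KMT5A and ENSG00000289410 lost both.

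The widest region was 4248 bp, at chr17:57915256-57919503, with its summit in an exon. The nearest TSS was that of TUBD1, 48861 bp away, which does not name the gene that the region lies in. The region had H3K27ac fold enrichments of 22.4 in siCONT and 14.2 in siDLEU1 cells, and H3K4me3 of 25.2 and 25.97. It ranked 75.3 and 80.1 for H3K27ac and 97.2 and 96.1 for H3K4me3, so H3K27ac was lower by fold enrichment and higher by rank. It was followed by the PPIAL4A region (2980 bp) and by regions near NAA20 (2727 bp), ENSG00000270087 (2568 bp), CRYBG1 (2448 bp), SOX4 (2258 bp), LINC02761 (2142 bp), CPEB3 (2037 bp), HCG15 (1993 bp) and ENSG00000272141 (1987 bp). These 10 kept both marks. At SOX4, a transcription factor gene, the H3K27ac rank was 54.7 in siCONT and 57.5 in siDLEU1 cells and the H3K4me3 rank 63.7 and 75.7, so both ranks were higher in siDLEU1 cells, whereas at CRYBG1 the H3K27ac rank went from 87.6 to 47.6.

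The largest falls of H3K27ac rank at retained regions were near LINC01243 (90.6 to 10.8), FOXJ2 (87.1 to 15.4), ENSG00000285703 (67.4 to 2.88), LINC01012 (73.5 to 10.04) and DUSP29 (77.0 to 15.5). That of LINC01243 belongs to the LINE-1 group, and those of ENSG00000285703 and LINC01012 lie on the chromosome 6 stretch. The largest rises were near PPIAL4H (46.2 to 99.3), JUNB (9.96 to 68.8), CNN2 (13.9 to 77.1), LEMD1 (7.74 to 81.8) and ENSG00000291073 (1.91 to 89.9). At PPIAL4H the scaled fragments went from 7.40 to 4.72, so that H3K27ac was higher by fold enrichment and lower by scaled fragments, and the summit bases occurred at 6 places. At JUNB, CNN2, LEMD1 and ENSG00000291073 the control regions were 195, 253, 257 and 441 bp wide and 1062 to 2260 bp from a TSS, and the siDLEU1 ranks are those of overlapping regions of 2403, 1532, 1354 and 2459 bp. For H3K4me3 the largest falls were near ANXA2R (91.6 to 1.21), TCTN2 (91.7 to 5.83), MAN2A1 (95.1 to 10.7), ENSG00000285603 (82.7 to 0.145) and RNF19B (93.8 to 12.9), all of which had also lost H3K27ac. In the same order, their H3K4me3 regions were 2060, 910, 1925, 760 and 2572 bp wide in siCONT cells. The overlapping siDLEU1 regions were narrower, at 1344, 223, 565, 328 and 336 bp. The largest rises were near SAMD9 (14.8 to 78.2), GDF11 (1.18 to 64.7), GTF2B (11.5 to 77.3), FHIP1A (6.46 to 72.8) and RASEF (3.29 to 78.2). Of these, only GDF11 and GTF2B kept H3K27ac. At GDF11 the H3K4me3 summit had 49 fragments in siCONT and 48 in siDLEU1 cells, or 1.72 and 2.15 scaled to depth. The rank there thus rose with nearly the same number of fragments. At SAMD9 the scaled fragments went from 1.09 to 3.01. The summit bases of the GTF2B region occurred at 90017 places. At FHIP1A and RASEF the H3K4me3 regions were 233 and 619 bp wide in siCONT and 1454 and 1614 bp in siDLEU1 cells.

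Genes of the lists compared here differed in how often they were the nearest gene. Of 50 growth factor and AP-1 genes, 16 (32%) were nearest to a double-marked distal region, against 6.82% of all protein-coding genes, and these had 21 such regions, of which 14 kept H3K27ac and 20 kept H3K4me3. The growth factor gene EREG, which encodes epiregulin, had a region 32775 bp from its TSS with H3K27ac fold enrichments of 17.3 and 8.09 and H3K4me3 of 21.3 and 14.1 in siCONT and siDLEU1 cells. The ranks there were 59.1 and 37.2 for H3K27ac and 94.4 and 79.5 for H3K4me3. MET, the receptor of hepatocyte growth factor, had an intronic region of the LINE-1 group with 12.3 and 7.53 for H3K27ac and 23.4 and 24.6 for H3K4me3. Its ranks were 41.6 and 32.7 for H3K27ac and 96.1 and 95.2 for H3K4me3. EGFR, the epidermal growth factor receptor, had a region 85198 bp away (8.69 and 5.23 for H3K27ac) and another at the shoulder of its promoter (6.43 and 6.59), and both kept H3K4me3. The H3K27ac ranks were 27.1 and 10.5 at the distant region and 15.3 and 24.5 at the shoulder. The AP-1 genes JUNB and JUND had 5 regions between them, of which 3 kept H3K27ac and 5 kept H3K4me3, and FOSL2 had 1 that kept both. At ATF3, another gene of the family, both marks were lost. Regions near CCND1 (cyclin D1), DUSP5, EGR1, CDKN2B, IL1B, MAFK, NFKB2, RELA and SPRY2 made up the rest, and those of DUSP5, IL1B and MAFK and 1 of 2 of CCND1 kept H3K4me3 only.

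Of 44 squamous and keratinocyte genes, 7 (15.9%) were nearest to a double-marked distal region, and 3 of the 7 regions kept H3K27ac and 6 kept H3K4me3. The region near S100A2, a calcium-binding protein gene of basal keratinocytes, had H3K27ac fold enrichments of 21.4 and 11.5 and H3K4me3 of 24.4 and 27.8. This region ranked 72.6 and 63.1 for H3K27ac and 96.8 and 97.1 for H3K4me3. It belongs to the SVA group, and the 31 bases at its summit occurred at 49 places. Regions of CLDN4, a tight junction gene, and TFAP2A, a transcription factor gene, also kept both marks. Those of PKP1 and DSP, which encode desmosome proteins, and KLF4 kept H3K4me3 only, and that of KRT15, a basal keratin gene, kept neither. Of 56 matrix, adhesion and invasion genes, 4 (7.14%) were nearest to 5 regions. Those of ZEB2 and SMAD7 kept both marks, those of CAV2 and 1 of 2 of ITGB1 kept H3K4me3 only, and the other of ITGB1 kept neither.

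Of 17 interferon signaling genes, 3 (17.6%) were nearest to a double-marked distal region, and none of their 3 regions kept H3K27ac. They were weak in the control list, with H3K27ac ranks of 13.0 at HLA-F, 3.89 at OASL and 3.41 at IFITM1, where loss was common in all classes. The regions of HLA-F, a class I histocompatibility gene, and OASL, an interferon-induced oligoadenylate synthetase-like gene, belong to the SVA group, and only that of OASL kept H3K4me3. Of 56 genes of a wider interferon list, 5 (8.93%) had a region each, and all 5 kept H3K4me3 while 2 kept H3K27ac. The region 3537 bp from SP100, a nuclear body protein gene, had H3K27ac fold enrichments of 15.2 and 9.19 and H3K4me3 of 18.4 and 11.7. It ranked 52.0 and 46.5 for H3K27ac and 91.0 and 72.1 for H3K4me3. Regions of PARP14 and IRF1 belong to the LINE-1 group and kept H3K4me3 ranks of 91.0 and 84.8 without H3K27ac, and the region of SAMD9 is among the H3K4me3 rises given above. With so few regions, the counts of these lists are descriptions, and an adjacent gene need not be the one a region acts on.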

How the data were processed

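Ion Proton ChIP-seq reads were mapped by the authors to hg19 with bowtie2, and peaks were called in each library with MACS2. Versions, settings and the placing of reads that fit several places are not given in the sources used here. The 4 deposited lists give for each region a fold ratio over local background, the −log10 p and −log10 q of MACS2, and a score that was not used. The offset column of the deposited lists gives the summit, and the other columns hold positions and names. The fold is taken within each list, so lists were compared by percentile rank and by whether regions shared 1 bp or more. The 2 input libraries were not analysed here.

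TSSs were those of protein-coding and lncRNA transcripts of GENCODE 44 lifted to GRCh37, and no region passed the end of its chromosome. Retention means overlap with a siDLEU1 region. The strongest overlapping region gave the rank. Fragments at the summit and library depth were solved from each region's fold and p, assuming a genome of 2.7 Gb for depth, and every listed p was matched. On 2686 simulated regions the fragment number was recovered exactly in 100%, and overlaps of 2000 simulated regions equalled a direct count in 100%. Shares have 95% Wilson intervals, which cover the counting of regions only. With 1 library per group no p-value was computed. Differences within deciles were averaged with weights: the number of double-marked distal regions for the comparison with regions without H3K4me3, and the smaller side of each decile for other features.

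Sequence was read from GRCh37. Named regions were the 10 strongest in control H3K27ac, the 10 strongest without siDLEU1 H3K27ac, the 5 strongest in H3K4me3 without siDLEU1 H3K4me3, the 10 widest, the 5 largest falls and rises of rank for each mark, the 5 genes nearest to most regions, and those nearest to list genes. Regions, gene lists and features were chosen with earlier results of these data known. The sequence groups, copy numbers and CpG classes were added after the data were seen. The alternatives were other TSS sets and distances, a −log10 q of at least 10, equal numbers of regions, stricter overlaps, and ranks by −log10 p or fragments. Python 3.11.15, numpy 2.4.6, pandas 2.3.3, scipy 1.17.1 and pysam 0.24.0 were used. Some items are not reported here.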

Additional observations from a re-analysis of the deposited data

How the results depend on the processing

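Of 61 values recomputed for 7 results under 11 settings, 44 stayed within the 95% interval of the reported value or, for the number of regions, within 1.5 times of it, 17 moved further and 0 reversed. With a −log10 q of at least 10 in all lists, 1061 regions remained in the rule, H3K27ac was retained at 32.5%, H3K4me3 at 86.7% and both at 31.1%, and the difference within deciles between regions with and without H3K4me3 was 3.83 points (-2.22 to 9.88). With equal numbers of regions per mark, the shares were 60.9%, 90.9% and 59.5%, and the median change in H3K27ac rank was -6.10. Counting a region as retained only where 50% or more of each region was shared gave 35.4%, 75.7% and 31.4%. With the TSSs of every annotated transcript, H3K27ac was retained at 47.5% and both marks at 46.3%. In these settings H3K4me3 was retained more often than H3K27ac. The alternatives with summit bases at 1 place (1667 regions, H3K4me3 86.4%) and without the LINE-1 and SVA groups (H3K4me3 85.3%) were chosen after seeing the data. Unless the setting itself changes the number of regions, the cause of a shift was not tested. No paired analysis was possible because each group has 1 library, and for the same reason no replicate could be left out. The precision of a region's value is limited by its fragments, with a median of 75 at the summits of the control H3K27ac list and 40 at those of the double-marked distal regions.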
